A study of Homo sapiens with 12 samples.

Results

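A group of 10 genes of cornification and squamous differentiation, IVL, SPRR1A, SPRR1B, SPRR3, S100A8, S100A9, TGM1, KRT6A, KRT13 and SULT2B1, was followed across 3 lung cancer lines with and without a hairpin against the kinase MARK2. These 10 genes were selected from the 18132 genes on the array with earlier results of the same arrays in view, so their own levels and changes are a description and carry no test. Probe sets were taken by the gene symbol of the platform annotation. That gave 12 probe sets named for a single member, of 49395 on the array, and they covered 9 of the 10 genes. A further probe set named both SPRR1A and SPRR1B. No probe set used here was named for KRT6A, a keratin of stressed and wounded squamous epithelium, which was therefore not analysed here.

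The cornified envelope is a sheath of cross-linked protein that replaces the plasma membrane of a keratinocyte as it differentiates. Involucrin and the small proline-rich (SPRR) proteins are its precursors, transglutaminase 1 joins them by isopeptide bonds, and ceramides and cholesterol sulfate form the lipid barrier outside it. Most precursor genes lie side by side with the S100 genes in the epidermal differentiation complex on chromosome 1, and airway epithelium switches them on in squamous metaplasia.

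The study measured total RNA as biotinylated cRNA on Affymetrix PrimeView arrays, where each probe set is a group of short probes for a transcript. The lines were NCI-H1650, NCI-H1693 and NCI-H1993, established human non-small cell lung cancer lines chosen by the submitters for high MARK2. Cells of each line were transduced with a lentiviral short hairpin against MARK2 (knockdown) or with the empty pLKO vector (control), so every group, controls included, carried a vector. Each of the 6 groups has 2 arrays, biological replicates per the series design, and the tests use the spread within these pairs. How many hairpins were used, and their sequences, is not given in the sources used here. Values are log2 signals, on which a difference of 1 is 2-fold, and each gene was read by its probe set of highest mean.

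MARK2 itself went from 9.12 to 6.77 in H1993 (difference -2.35, limma adjusted p = 6.47e-06) and from 7.86 to 6.60 in H1693 (-1.27, adjusted p = 0.000258). In H1650 it went from 5.94 to 5.65, and this difference of -0.29 did not pass the threshold of 0.05 (adjusted p = 0.156). The other MARK2 probe set differed by -2.12 in H1993, by -0.58 in H1693 and by 0.03 in H1650, so the size of the fall in H1693 depends on the probe set. RNA integrity also set H1650 apart. Its GAPDH 3′ minus 5′ signal was 2.68 ± 0.56 without and 6.82 ± 0.07 with the hairpin (log2, SD, n = 2), against -0.10 to 0.00 in the 4 other groups. In H1650 the hairpin and RNA integrity cannot be told apart, and this holds for every H1650 knockdown difference given here. In the control comparisons with H1650, line and RNA integrity cannot be told apart either. All 6 of 6 simple epithelial markers (EPCAM, KRT7, KRT8, KRT18, KRT19 and CDH1) had a group mean of 5 or more in each group, with a summed level from 16.16 to 16.89. Single markers were less even. KRT8 went from 11.66 to 7.19 in H1650, with probe sets from -4.47 to 0.42. The others differed there by -0.85 (KRT18), -0.24 (KRT7), -0.17 (KRT19), 0.03 (CDH1) and 0.45 (EPCAM). KRT7 read 6.70 and 6.38 in H1693, against 14.03 to 14.26 in the other lines. Of 6 lung lineage markers (NKX2-1, NAPSA and surfactant genes) 5 had a group mean of 5 or more, with a summed level between 9.40 and 9.69 in every group. The median of all probe sets was 7.13 to 7.32 on the arrays, and NKX2-1 had group means of 6.91 to 7.25. The background of each probe set is not known, so a mean of 5 or more does not show expression. This holds for every marker count given here.

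The sequences upstream of the 4 envelope precursors are shown because these genes lie close together and encode proteins of one structure. The RefSeq promoter table (GRCh38.p14) held an entry for 7 of the 10 members, and the 250 bases before the transcription start are given for these 4, all on the + strand. They are IVL (chr1:152908296-152908545), SPRR1A (chr1:152983831-152984080), SPRR1B (chr1:153030953-153031202) and SPRR3 (chr1:153001499-153001748). Capitals mark TGANTCA, the form bound by AP-1 factors, and TATAAA, the TATA box form; each was searched on both strands.
IVL: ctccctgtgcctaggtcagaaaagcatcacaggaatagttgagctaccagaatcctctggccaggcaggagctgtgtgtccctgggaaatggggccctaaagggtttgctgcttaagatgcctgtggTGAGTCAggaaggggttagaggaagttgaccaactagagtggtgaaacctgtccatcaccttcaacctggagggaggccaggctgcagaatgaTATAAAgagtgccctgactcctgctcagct
SPRR1A: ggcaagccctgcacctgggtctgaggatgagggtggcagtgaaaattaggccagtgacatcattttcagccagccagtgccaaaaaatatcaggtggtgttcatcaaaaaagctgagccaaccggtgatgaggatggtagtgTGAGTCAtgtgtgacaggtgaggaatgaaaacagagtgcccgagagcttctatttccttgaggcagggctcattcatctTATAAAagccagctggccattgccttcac
SPRR1B: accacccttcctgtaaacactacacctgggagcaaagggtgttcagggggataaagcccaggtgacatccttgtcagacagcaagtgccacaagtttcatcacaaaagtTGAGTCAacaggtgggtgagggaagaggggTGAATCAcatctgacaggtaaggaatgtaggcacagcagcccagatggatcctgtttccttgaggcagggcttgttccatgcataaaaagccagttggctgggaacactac
SPRR3: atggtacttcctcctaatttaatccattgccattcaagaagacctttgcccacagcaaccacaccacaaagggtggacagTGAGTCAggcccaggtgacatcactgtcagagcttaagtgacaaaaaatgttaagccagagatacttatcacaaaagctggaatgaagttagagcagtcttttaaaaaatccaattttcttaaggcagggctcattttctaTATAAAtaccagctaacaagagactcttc

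TGANTCA stood 123 bases before the start in IVL, 108 in SPRR1A, 170 in SPRR3, and at 141 and 111 in SPRR1B. TATAAA stood 30 bases before the start in IVL and 29 in SPRR1A and SPRR3. The SPRR1B window does not hold it. All 4 precursor windows held TGANTCA, and none of the windows of S100A8, S100A9 and SULT2B1 did. Of 35116 promoter windows of the same length in the table, 2308 (6.57%) held it and 3763 (10.7%) held TATAAA. Of the 9 member windows, which count 3 starts of S100A8, 6 held the TATA form. It stood 29 bases before the start of S100A9 and before one start of S100A8. The core GGAAG, read by ETS factors, stood in 8 of the 9 member windows and in 65.1% of all windows. Aligned bases were 74.1% identical between SPRR1A and SPRR1B, 73.5% between SPRR1A and SPRR3 and 71.5% between SPRR1B and SPRR3, and 54% to 69.2% in the other pairs. A match to such letters is a description of the window, and no factor was measured on them.

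Among the envelope precursors, involucrin (IVL), the scaffold on which the envelope is built, was higher with the hairpin in H1993 and lower in H1650. Its log2 signal in H1993 was 6.49 and 6.17 in the control arrays and 8.43 and 8.47 in the knockdown arrays. Both knockdown arrays lay above both controls, and the mean went from 6.33 ± 0.23 to 8.45 ± 0.02 (SD, n = 2), a difference of 2.12 (SE 0.11) or 4.35-fold. H1650 controls read 10.01 and 9.82, and the arrays labelled knockdown 8.81 and 8.93. There the order was the opposite, 9.92 ± 0.13 against 8.87 ± 0.09, a difference of -1.05 (SE 0.11) or 2.07-fold lower. H1693 read 7.64 and 7.53 without the hairpin and 7.29 and 7.32 with it, a small step down of -0.28 with no overlap. H1993 thus had the lowest IVL of the 3 lines without the hairpin and lay between H1693 and H1650 with it. In bulk RNA such as this, a change in the share of expressing cells and a change in RNA per cell cannot be told apart.

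SPRR1B, a cornifin cross-linked into the envelope beside involucrin, was high in 2 lines and low in the other. In H1993 it read 12.30 and 12.24 in control and 14.14 and 14.11 in knockdown arrays. The arrays with the hairpin stood apart from the controls by 1.85 (SE 0.07), or 3.62-fold. H1650 gave 12.18 and 12.26 in control arrays and 11.64 and 11.60 in those labelled knockdown, a difference of -0.60 (SE 0.07) or 1.52-fold lower. Control levels of H1650 and H1993 overlapped, 12.22 ± 0.05 and 12.27 ± 0.04, and their knockdown arrays moved apart in opposite directions. H1693 stayed below the log2 signal of 5 used as the floor for testing, with 4.63 and 4.67 in control and 4.45 and 4.61 in knockdown arrays.

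SPRR1A, the near copy of SPRR1B, was also higher with the hairpin in H1993. Its controls both read 9.87 there and its knockdown arrays 11.58 and 11.67, a difference of 1.76 (SE 0.12) or 3.38-fold. Its other probe set gave 9.0 and 9.09 against 10.75 and 10.62, a difference of 1.64. Both probe sets therefore placed every knockdown array of H1993 above the controls. In H1650 the same 2 sets differed by 0.40 (8.95 and 9.03 against 9.30 and 9.48) and by 0.29. The set named for both genes went the other way in H1650, from 10.91 and 10.76 to 9.52 and 9.70, a difference of -1.23, which is the direction of SPRR1B. Probes of such near copies may share signal, so a change of SPRR1A apart from SPRR1B is uncertain. In H1993 the shared set read 10.95 and 10.93 in control and 13.06 and 13.04 in knockdown arrays, 4.31-fold higher. For H1693, SPRR1A read 5.73 and 6.14 in control and 5.33 and 5.43 in knockdown arrays, a difference of -0.56 (SE 0.12). The other set did not repeat that order, with 6.27 and 6.19 against 6.06 and 6.74, a difference of 0.17 with overlapping groups.

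SPRR3, the precursor most used in the non-keratinizing linings of mouth and oesophagus, had its highest level in H1993 before any knockdown. H1993 controls read 13.32 and 13.34 and knockdown arrays 13.95 and 13.87, a difference of 0.58 (SE 0.12) or 1.49-fold. In H1650 it read 8.31 and 8.25 in control arrays and 9.02 and 9.08 in those labelled knockdown, a difference of 0.78 (SE 0.12) or 1.71-fold. SPRR3 and SPRR1A were thus the members higher in both lines, while IVL and SPRR1B differed in sign between them. H1693 arrays overlapped, with 6.50 and 6.50 in control and 6.59 and 6.16 in knockdown.

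**Figure D1:**
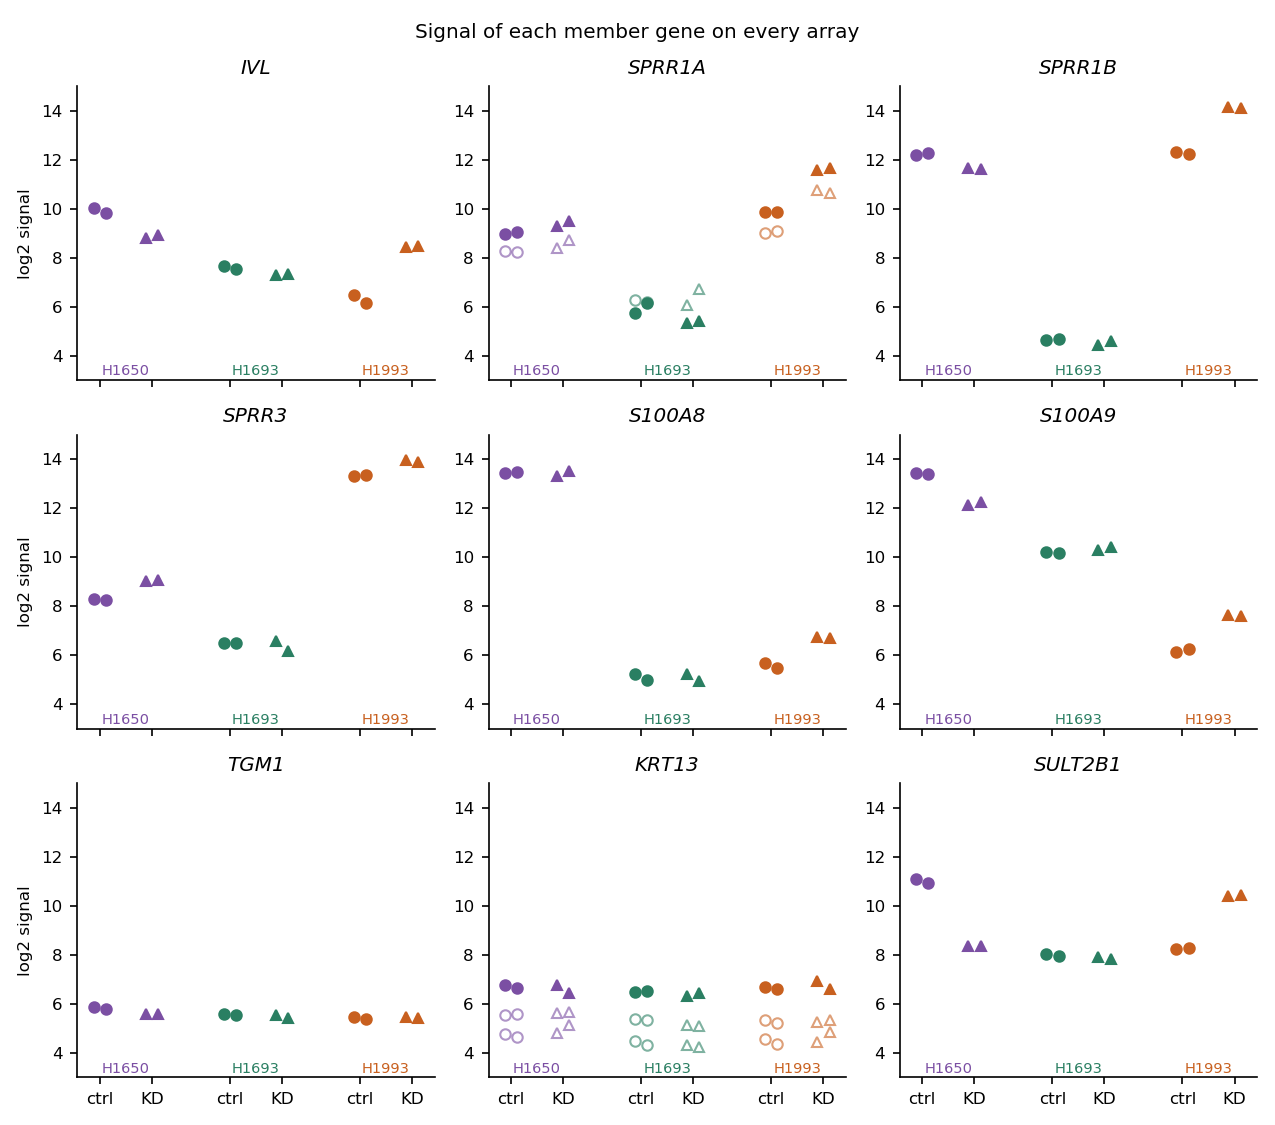
Log2 signal of the 9 measured members on each of the 12 arrays, with circles for control (ctrl) and triangles for knockdown (KD) arrays, coloured by line; open symbols are further probe sets of SPRR1A and KRT13. In H1993 both IVL knockdown arrays, at 8.43 and 8.47, lie above the controls at 6.49 and 6.17, while in H1650 the IVL knockdown arrays lie below the controls.

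TGM1, the membrane-bound enzyme that cross-links the precursors, stayed between 5.38 and 5.89 on all 12 arrays. Its H1993 controls read 5.48 and 5.38 and its knockdown arrays 5.46 and 5.44, a difference of 0.02 (SE 0.07). The precursors of H1993 were thus higher with no difference in TGM1 signal beyond its error. H1650 gave 5.89 and 5.79 against 5.58 and 5.59, a difference of -0.25, and H1693 5.58 and 5.53 against 5.56 and 5.43, a difference of -0.06. The background of this probe set is not known, so its flat low signal does not show whether the enzyme is expressed.

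SULT2B1, the sulfotransferase that makes cholesterol sulfate for the barrier, had the widest span of differences among the members. In H1650 it read 11.09 and 10.94 in control arrays and 8.36 in both arrays labelled knockdown. Both lay far below the controls, with a difference in means of -2.66 (SE 0.07) or 6.3-fold lower. H1993 controls read 8.22 and 8.28 and knockdown arrays 10.38 and 10.45, a difference of 2.17 (SE 0.07) or 4.49-fold. The lines thus exchanged order, since H1650 went from 11.01 to 8.36 and H1993 from 8.25 to 10.42. H1693 read 8.04 and 7.94 in control and 7.89 and 7.81 in knockdown arrays, a difference of -0.14 with no overlap. Of all member pairs other than TGM1 and KRT13, IVL and SULT2B1 had the closest profiles, with a root mean square difference of 0.88 (log2) between the 12 values after each gene was centred on its mean. This measure also depends on how much a gene varies. IVL lay at 1.05 and SULT2B1 at 1.18 from TGM1, and at 1.11 and 1.16 from KRT13, although both of these varied little. The value of 0.88 is thus only a little smaller, and it does not show a shared pattern. All these figures describe 12 arrays that share lines and controls.

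S100A8 and S100A9 encode the subunits of calprotectin, a calcium-binding complex of neutrophils that squamous epithelium also makes. S100A9 read 6.12 and 6.27 in the H1993 controls and 7.64 and 7.59 with the hairpin, a difference of 1.42 (SE 0.08) or 2.68-fold. S100A8 read 5.68 and 5.47 there and 6.76 and 6.70 with the hairpin, a difference of 1.16 (SE 0.13) or 2.23-fold. In H1993 both subunits were therefore higher on every knockdown array. In H1650 they parted. S100A9 went from 13.43 and 13.41 to 12.11 and 12.24, a difference of -1.24 (SE 0.08) or 2.37-fold lower. S100A8 overlapped at 13.45 and 13.46 against 13.32 and 13.53, a difference of -0.03. The 2 subunits thus gave unlike differences in the same arrays. H1693 had S100A9 at 10.22 and 10.18 in control and 10.30 and 10.41 in knockdown arrays, and S100A8 overlapping between 4.94 and 5.25.

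Because myeloid cells also carry calprotectin, 10 myeloid markers were read beside it. PTPRC, the pan-leukocyte surface phosphatase, stayed below 5 in every group, with means of 3.56 to 4.38. The summed myeloid level was 11.84 to 11.95 in H1993 control and 11.94 to 11.97 in H1993 knockdown arrays, with 6 and 8 of the 10 markers at 5 or above. LYZ, lysozyme, which secretory airway cells also make, went from 4.48 ± 0.07 to 6.18 ± 0.24 in H1993, and CD14 from 8.21 ± 0.15 to 8.72 ± 0.21. The LYZ probe sets differed by 0.24 to 1.70 there, and CD14 did not pass (limma adjusted p = 0.0559). The other myeloid markers tested did not pass in H1993 either, with differences from -0.19 (TYROBP) to 0.20 (ITGAM). CD68, the brightest of the 10 markers there, had a mean of 11.50 in both H1993 groups and so made up most of the summed level. In H1650 the summed level was 10.84 to 10.86 in control arrays and up to 11.08 in knockdown arrays, with 7 and 8 markers at 5 or above. It was 9.55 to 9.73 in H1693, with 7 in both groups. The part of these markers in the calprotectin values was not tested.

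KRT13, the keratin of non-cornified squamous layers, overlapped or differed little in all lines. Its brightest probe set read 6.70 and 6.60 in H1993 control and 6.93 and 6.61 in knockdown arrays, a difference of 0.12 (SE 0.13). H1650 gave 6.76 and 6.66 against 6.77 and 6.43, a difference of -0.11, and H1693 6.48 and 6.54 against 6.30 and 6.43, a difference of -0.14. The other 2 probe sets differed by -0.25 to 0.26 over the lines. As for TGM1, the background of these sets is not known.

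**Figure D2:**
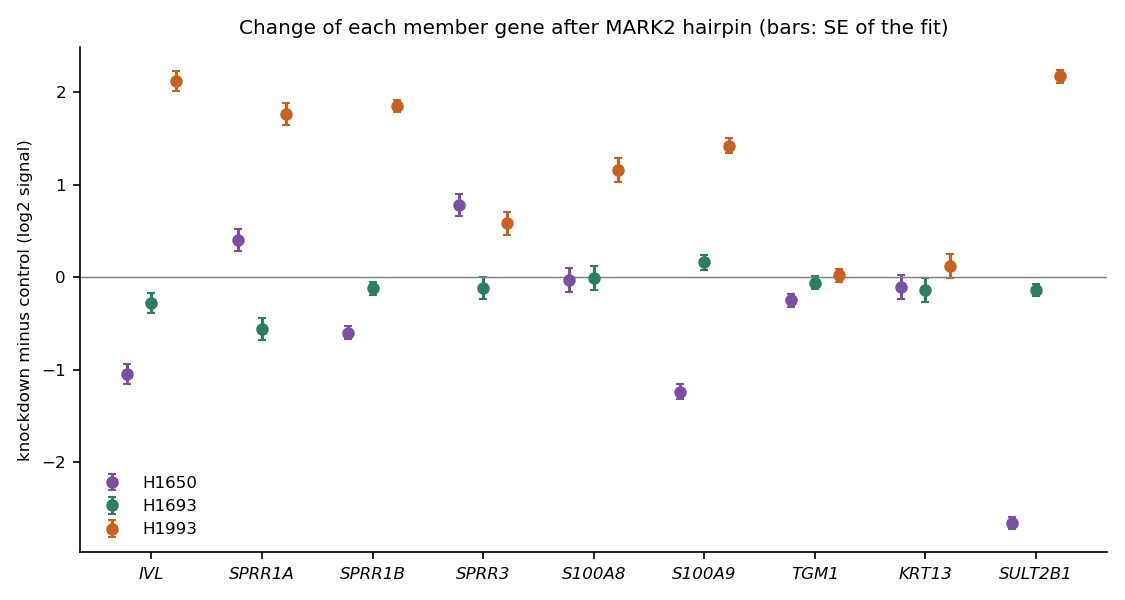
Knockdown minus control for the 9 measured members (log2 signal, difference of group means), coloured by line, with the SE of the fit as bars. In H1993 the 7 members other than TGM1 and KRT13 lie between 0.58 and 2.17, in H1650 SULT2B1 lies at -2.66, and in H1693 no member lies outside -0.56 to 0.16.

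Counted over the fit of all 16205 genes tested, 7 of 9 members were past the threshold and higher in H1993 and 0 were lower, where the percentages of all genes called were 18.9% higher and 14.5% lower. In H1650 the count was 2 higher and 5 lower, where 36.7% of all genes were called higher and 16.7% lower. For H1693 it was 0 higher and 1 lower (SPRR1A), where 17.1% and 15.9% of all genes were called. At an unadjusted p under 0.05 limma gave 7 higher and 0 lower in H1993 and 0 higher and 2 lower in H1693. Since the members were selected with these differences known, nothing is read from their counts. The median difference of the members was 1.42 in H1993, -0.25 in H1650 and -0.12 in H1693, against medians over all genes of 0.02, 0.15 and -0.02. The single member called lower in H1693 was lost when all probe sets of a gene were averaged, and 2 were called when only the 4 arrays of H1693 entered the fit. It became 2 without knockdown replicate 1 of H1693, without control replicate 1 of H1993, or without control replicate 2 of H1993. In H1650 the 2 members called higher became 1 without control replicate 1 or without knockdown replicate 2 of that line.

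Before any knockdown the control arrays of the lines already differed in these genes, each in other members. The GAPDH 3′ minus 5′ signal was 2.68 in the H1650 controls, 0 in those of H1693 and -0.1 in those of H1993. In every control comparison with H1650, line and RNA integrity therefore cannot be told apart. H1650 had the calprotectin subunits high: its S100A8 control mean was 327-fold that of H1693 and 236-fold that of H1993, and its S100A9 9.35-fold and 150-fold. H1693 in turn stood above H1993 for S100A9, 16.1-fold, for IVL, 2.39-fold, and slightly for TGM1, 1.09-fold. H1650 also had the highest IVL, 5.03-fold over H1693 and 12-fold over H1993, and the highest SULT2B1, 8.15-fold and 6.8-fold. SULT2B1 was close in H1993 and H1693, 8.25 ± 0.04 and 7.99 ± 0.07. H1993 had the highest SPRR3, 33.2-fold over H1650 and 114-fold over H1693. SPRR1A was 1.84-fold higher in H1993 than in H1650 and 15.2-fold higher than in H1693. SPRR1B in H1993 was 197-fold over H1693, where its signal was under the floor of 5, and 1.03-fold over H1650. Between lines the control means of TGM1 and of KRT13 each differed by at most 0.41. The folds of S100A8 and SPRR1B against signals near or under the floor are folds of signal. Differences of dim probe sets can be understated, and the folds over H1650 or of H1650 also carry its RNA integrity. The fold in RNA is therefore not known.

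Between control arrays the members counted 0 higher and 8 lower in H1693 against H1650, 2 higher and 5 lower in H1993 against H1650, and 5 higher and 2 lower in H1993 against H1693. Over all genes, 24.5% were called higher and 38.5% lower in the first of these comparisons. In H1993 against H1650 23.7% were higher and 40.1% lower, and in H1993 against H1693 30.1% and 32.9%. Quantile normalization over the tested genes turned the split over all genes between control arrays, from 3969 higher and 6233 lower to 5325 and 4990 for H1693, and from 3842 and 6492 to 5857 and 5139 for H1993. For H1993 against H1693 it went from 4878 and 5330 to 5539 and 5149. The split after knockdown in H1993 turned as well, from 3064 higher and 2354 lower to 2757 and 2867. In the H1650 knockdown comparison the split over all genes went from 5954 higher and 2702 lower to 4737 and 3468. The median of all genes there moved from 0.15 to 0.04, and in the control comparisons with H1650 from -0.12 to 0.03 (H1693) and 0.08 (H1993). The sign of no called member difference turned under that setting.

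**Figure D3:**
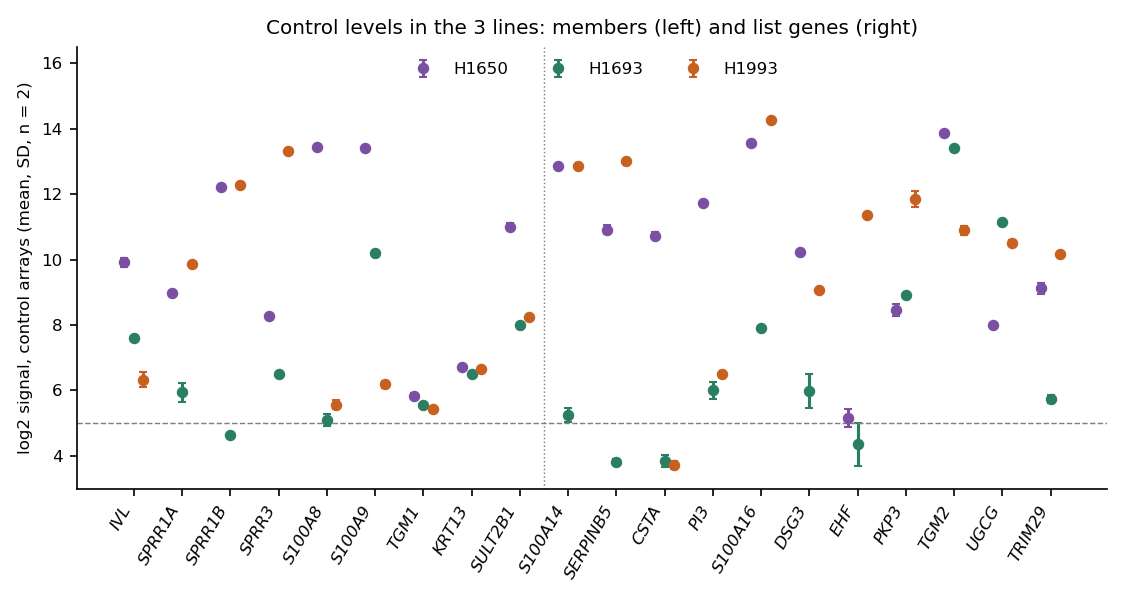
Log2 signal in the control arrays (mean, bars SD, n = 2) of the 9 measured members, left of the dotted line, and of other squamous genes, right of it, coloured by line; the dashed line is the floor of 5. H1650 stands highest for S100A8 and S100A9, H1993 for SPRR3, and H1693 reads 4.65 for SPRR1B.

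The genes whose 12-array profiles came closest to a member were taken for the 4 members of widest spread. Likeness is the root mean square difference between centred log2 profiles, over 12 arrays that are 3 lines. For SPRR3, with an SD of 3.15 over the arrays, S100P came closest at 0.32, then PSCA at 0.45 and RASGEF1A at 0.50. MGP came closest to S100A8 at 0.42, followed by OLFM1 at 0.53 and MX1 at 0.57. SPRR1B was closest to ABCG2 at 0.67, S100A14 at 0.70 and SERPINB5 at 0.71. For S100A9 the nearest were PXMP4 at 0.61, ARHGAP23 at 0.62 and MYL9 at 0.63. These genes were picked for the smallest differences among all genes tested, and the members for a large SD of 4.01 (SPRR1B), 3.89 (S100A8) or 2.59 (S100A9). Small differences beside the SD follow from that choice, and nothing is read from them.

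IVL, SPRR1A, SPRR1B, SPRR3, S100A9 and S100A8 lie in one stretch of chromosome 1 in the gene order of RefSeq. Between them lie 14 other protein-coding genes, of which 12 had a probe set and 8 were tested. In H1993 3 of these 8 rose and 0 fell by limma, the same counts as at an unadjusted p under 0.05, or 37.5% higher where 18.9% of all genes were higher and 14.5% lower. SPRR2D, another small proline-rich precursor, rose by 1.69 (SE 0.08, limma adjusted p = 6.79e-07), SPRR2A by 0.64 (adjusted p = 0.00155) and SPRR2G by 0.38 (adjusted p = 0.0317). SPRR4, SPRR2F, LORICRIN, PGLYRP4 and S100A12 did not pass there, with differences from -0.05 to 0.27. In H1650 2 of 8 rose (25%, against 36.7% of all genes), SPRR2D by 1.67 and S100A12 by 0.63 (adjusted p = 0.011), and in H1693 SPRR2D fell by 0.26 (adjusted p = 0.0259). SPRR2D sits next to SPRR1B in this order, and in H1650 SPRR2D rose while SPRR1B differed by -0.60. SPRR2 genes are near copies of each other, so the gene named for a probe set is uncertain among them. LORICRIN, the main envelope protein of epidermis, stayed between group means of 5.12 and 5.33.

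**Figure D4:**
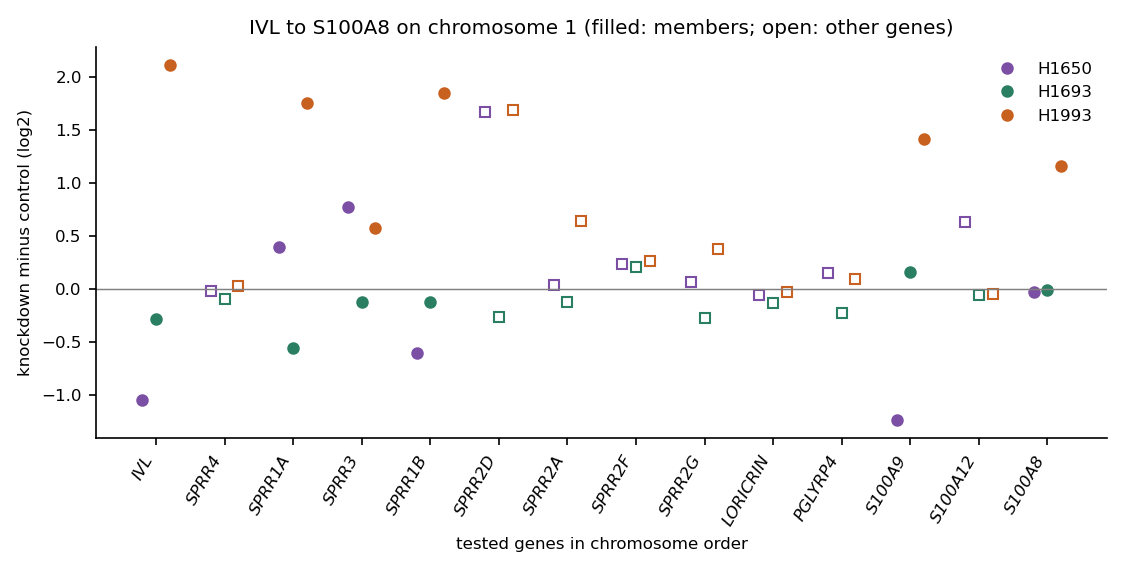
Knockdown minus control (log2 signal) of the tested genes from IVL to S100A8 in chromosome order, spaced evenly, with filled circles for members and open squares for other genes, coloured by line. In H1993 IVL, SPRR1A, SPRR1B and SPRR2D lie between 1.69 and 2.12 while SPRR4 and LORICRIN lie at 0.03 and -0.03.

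Beyond the members, 117 other genes of squamous differentiation were listed by role, of which 108 had a probe set and 98 were tested. This list too was chosen with earlier results of these data known, so its counts and p-values are not an independent test. In H1993 19 of 98 rose and 8 fell, with a median of 0.09, shares of 19.4% and 8.16% against 18.9% and 14.5% of all genes. For H1650 18 rose and 17 fell (median 0.07), which quantile normalization changed to 11 and 23. These 18.4% and 17.3% of the list stand against 36.7% and 16.7% of all genes. H1693 had 10 that rose and 7 that fell (median -0.04), 10.2% and 7.14% against 17.1% and 15.9% of all genes. The difference of the change between H1993 and H1693 was tested too: 15 of 98 were higher in H1993 and 5 lower, where 12.6% and 9.48% of all genes were called. Its median over the list was 0.13, against 0.05 over all genes. The share of the list that rose in H1993 is near that of all genes. The counts by role that follow are to be read against these shares over all genes in the same line.

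Of 30 other envelope precursors tested, 5 rose and 1 fell in H1993, 16.7% and 3.33%. Periplakin (PPL), which links the envelope to desmosomes and keratin, rose there by 1.34 (SE 0.07, limma adjusted p = 1.41e-06) and in H1693 by 0.55 (adjusted p = 0.000259). In H1650 its brightest set was at 0.14 and did not pass, and its other sets ran down to -4.52. Envoplakin (EVPL), its partner, rose by 0.36 in H1993 (adjusted p = 0.032) and by 0.44 in H1693 (adjusted p = 0.0126), and fell by 2.41 in H1650 (adjusted p = 3.51e-07). Both plakins therefore rose in the lines whose RNA integrity was even, and SPRR1B, IVL and EVPL were lower together in H1650. Among precursors 2 rose and 1 fell in H1693, and 3 rose and 2 fell in H1650.

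Of 8 other S100 proteins 0 rose in H1993 and 1 fell, S100A2 by 0.33 (limma adjusted p = 0.023); at an unadjusted p under 0.05 the counts were 0 and 2. S100A2, a p63 target of basal cells, also fell in H1650, by 0.99 (adjusted p = 2.04e-05), and in H1693, by 0.55 (adjusted p = 0.00154), and so in all 3 lines. In H1693 3 of 8 fell, the others being S100A16 by 1.18 (adjusted p = 5.04e-06) and S100A14 by 0.71 (adjusted p = 0.000389). H1650 had 4 that fell and S100A12 as the 1 that rose. Beside TGM1, 4 other transglutaminases were tested. TGM2, the ubiquitous tissue transglutaminase, fell by 0.56 in H1993 (adjusted p = 0.00135), and TGM7 rose by 0.23 in H1650 (adjusted p = 0.0366).

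Beside KRT13, of 10 squamous keratins 0 rose in H1993 by limma, also at an unadjusted p under 0.05. KRT80, a keratin of differentiating epithelia, fell there by 0.67 (limma adjusted p = 2e-04) and in H1650 by 1.10 (adjusted p = 4.37e-06). KRT14, the basal-layer partner of KRT5, fell by 0.52 in H1650 (adjusted p = 0.00224), where KRT5 rose by 0.44 (adjusted p = 0.0313), and KRT4 fell by 0.36 in H1693 (adjusted p = 0.00737). KRT6C, a near copy of KRT6A, did not pass in any line, with group means of 7.22 to 8.06. Of 5 desmosomal genes 0 passed limma's threshold in H1993 or H1693, against 1 and 0 at an unadjusted p under 0.05. In H1650 PKP3 fell by 1.11 (adjusted p = 4.32e-05), although its other set was at -0.08, and DSC3 rose by 0.60 (adjusted p = 0.00229).

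Beside SULT2B1, 3 of 10 other barrier lipid genes rose in H1993 and 0 fell by limma, against 5 and 0 at an unadjusted p under 0.05. STS, the sulfatase that removes the sulfate SULT2B1 adds, rose by 1.57 (limma adjusted p = 4.23e-06), and ELOVL4, which makes very long ceramide fatty acids, by 0.90 (adjusted p = 3e-05). In H1993 the enzymes that add and remove the sulfate were thus both higher. H1650 had 5 that rose and 1 that fell, with ELOVL4 at 1.17 and STS at 0.90, so STS and SULT2B1 went opposite ways there. The STS sets ran from -0.52 to 0.90 in H1650 and from 0.75 to 1.57 in H1993, and those of ELOVL4 from -0.80 to 1.17 in H1650. In H1693 UGCG, glucosylceramide synthase, rose by 0.72 (adjusted p = 0.00187) and ELOVL4 by 0.27 (adjusted p = 0.0269). Of 6 proteases and inhibitors, SERPINB4 was the 1 that rose in H1993, by 0.48 (adjusted p = 0.00729). SERPINB5 rose by 0.51 and SERPINB3 fell by 0.50 in H1650 (adjusted p = 0.00218 and 0.0355), with SERPINB5 sets from -0.65 to 0.51.

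Of 25 regulators tested, 10 rose and 4 fell in H1993, 6 rose and 2 fell in H1693, and 5 rose and 6 fell in H1650. The shares were 40% and 16% in H1993, where 18.9% and 14.5% of all genes were called, 24% and 8% in H1693, against 17.1% and 15.9%, and 20% and 24% in H1650, against 36.7% and 16.7%. NOTCH3, a receptor of the Notch pathway that drives keratinocytes out of the basal layer, rose by 1.81 in H1993 (limma adjusted p = 6.96e-07), with its other set at -0.13. PRDM1, a transcriptional repressor, rose by 1.03 there (adjusted p = 0.000904), with sets from 0.00 to 1.03. ELF3, an epithelial ETS factor, rose by 0.48 in H1993 (adjusted p = 0.00201) and fell by 2.60 in H1650 (adjusted p = 1.04e-07), where its sets ran from -2.60 to -0.19. JUNB, an AP-1 subunit, rose by 0.41 in H1993 (adjusted p = 0.0153) and 0.55 in H1693 (adjusted p = 0.00368) and fell by 2.24 in H1650 (adjusted p = 4.55e-07). Another AP-1 subunit, FOSL1, rose in H1650, by 0.35 (adjusted p = 0.00159), and FOSL2 fell in H1993, by 0.37 (adjusted p = 0.00206). CEBPA, a factor of epithelial differentiation, rose by 0.94 in H1993 (adjusted p = 0.000879) and fell by 0.97 in H1650 (adjusted p = 0.000366). JUNB, FOSL1 and FOSL2 thus had no common direction in these lines, and their part in the members' differences was not tested. TRIM29, a p63-linked factor, fell by 2.46 in H1650 (adjusted p = 1.04e-06, sets from -3.57 to 0.35), and KLF5, a factor of basal and simple epithelia, fell by 1.44 (adjusted p = 1.01e-06). FOSL1 fell by 1.03 in H1693 (adjusted p = 6.67e-06), and CEBPB rose by 0.61 there (adjusted p = 0.00273).

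TP63, the factor that defines squamous identity, had no probe set named for it here. SOX2, which is amplified in squamous lung cancer, rose by 0.44 in H1993 (limma adjusted p = 0.0159), with sets from 0.04 to 1.57. KLF4 rose by 0.46 in H1650 (adjusted p = 0.0085), with its other set at -1.24, and did not pass in H1693 or H1993. GRHL3 and ZNF750, factors of terminal differentiation, did not pass in any line, with differences of -0.51 to 0.49 and 0.04 to 0.13. The summed level of the 4 measured basal squamous markers (KRT5, KRT14, DSG3 and SOX2), all at 5 or above in each group, was 9.65 to 9.70 in H1993 control and 10.05 to 10.11 in H1993 knockdown arrays. It was 10.64 to 10.66 and 11.07 to 11.14 in H1650, and 8.39 to 8.58 and 8.36 to 8.5 in H1693. DSG3, a desmosomal cadherin of squamous epithelia, went from 9.06 to 9.61 in H1993 and did not pass (adjusted p = 0.182). The summed level of the fibroblast markers also moved, from 8.85 to 8.93 up to 9.30 to 9.43 in H1993. It went from 10.91 to 10.97 up to 11.33 to 11.39 in H1650 and from 12.09 to 12.11 up to 12.84 to 12.89 in H1693, with 3 to 5 of 6 at 5 or above. Not all of them rose. COL1A1, COL3A1 and LUM differed by 0.59, 0.43 (adjusted p = 0.155 by limma) and 2.00 in H1993 and by 0.67, 0.62 and 0.95 in H1693. COL1A2 and PDGFRB differed by -0.11 to 0.00 in these 2 lines, and DCN had means under 5 in every group. The part of either marker group in the members' differences was not tested.

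**Figure D5:**
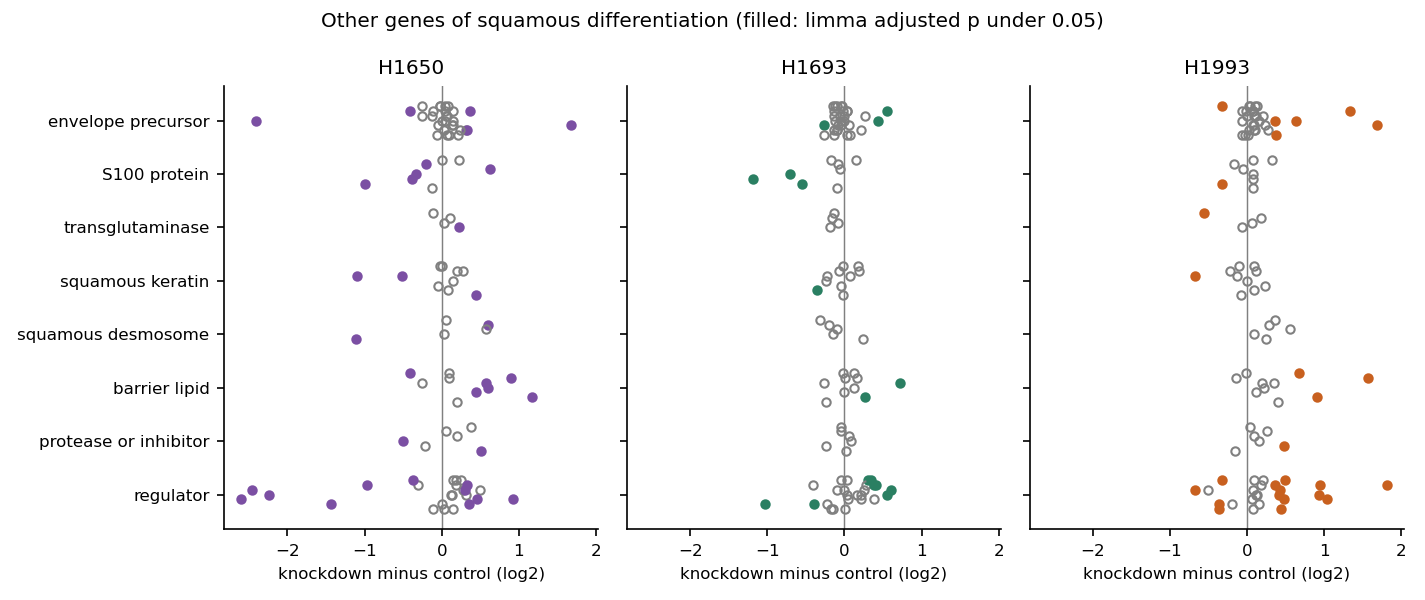
Knockdown minus control (log2 signal) of the 98 tested squamous genes outside the members, by role and line; filled points passed limma's adjusted p of 0.05. In H1993 SPRR2D, PPL, STS, NOTCH3 and PRDM1 lie above 1, and in H1650 EVPL, ELF3, TRIM29 and JUNB lie below -2.

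Between control arrays, 7 of 98 list genes were higher and 55 lower in H1693 than in H1650 (7.14% and 56.1%), where 24.5% of all genes were higher and 38.5% lower. After quantile normalization, which turned the split over all genes, the list counted 10 and 47. In H1993 against H1693 38 were higher and 14 lower (38.8% and 14.3%), against 30.1% and 32.9% of all genes. S100A14 read 12.86 in H1650, 12.87 in H1993 and 5.26 in H1693, a difference of -7.60 for H1693 against H1650 (limma adjusted p = 9.5e-12). SERPINB5, the serpin maspin, was 9.19 higher in H1993 than in H1693 (adjusted p = 4.92e-12), from a mean of 3.81 in H1693 that is under the floor of 5. S100A16 was 6.35 higher (adjusted p = 4.92e-12). TRIM29 was higher there by 4.42 and DSG3 by 3.07. CSTA and PI3, a protease inhibitor pair built into the envelope, followed the H1650 pattern of S100A8. CSTA was at 10.73 in H1650 and under the floor in the others, 3.84 in H1693 and 3.71 in H1993, and PI3 at 11.73, 6.0 and 6.51. H1993 against H1650 counted 15 higher and 44 lower, or 24 and 37 after quantile normalization. EHF, an epithelial ETS factor, was 6.22 higher in H1993 than in H1650 (adjusted p = 7.57e-09), PKP3 3.40 and UGCG 2.53 higher, and TGM2 differed by -2.97. These counts come from control arrays that also enter the knockdown differences. In the comparisons with H1650, line and RNA integrity cannot be told apart.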

How the data were processed

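The deposited table gives, for each probe set, the log2 signal that the authors obtained by RMA (background subtraction, normalization across arrays, summary of each probe set). The submitters' processing notes name Affymetrix Expression Console as the software, with versions not given in the sources used here. All 12 arrays were used, and no per-sample column was left out (0). Probe sets with a single gene symbol (44994) entered, controls aside, and 18132 genes were each read by the probe set of highest mean. Genes with 2 or more arrays at log2 5 were tested, 16205 in all. A limma 3.58.1 model (R 4.3.3) with 6 group means was fitted to all 12 arrays together (eBayes, 6 residual degrees of freedom), two-sided, with Benjamini-Hochberg adjustment over all genes tested and a threshold of 0.05. SE values come from this fit. The members, the squamous list and the markers were chosen with earlier results of these data known.

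Named were every member; per line and role up to 2 list genes past the threshold with the largest change, and each that changed by 1 or more; per pair of control groups the 6 largest differences; TP63, SOX2, GRHL3, KLF4 and ZNF750 whatever their values; and, for the 4 members of largest SD, the 3 closest profiles. KRT5, KRT6C, FOSL2, CEBPA, LYZ, CD14, the genes between IVL and S100A8 and values of named genes in other lines were added after their values were seen. Single values of CD68, ITGAM, TYROBP and of the simple epithelial and fibroblast markers were added in the same way. The summed level of a marker class is the log2 of the sum of its linear signals. Promoters came from RefSeq (GRCh38.p14) and were matched by symbol. Alternatives were the floor (none or 6), the mean of probe sets, quantile normalization, replicate and array position blocks, fewer arrays, robust variances and each array left out. The steps were tested on simulated data. Array number limits the precision.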

Additional observations from a re-analysis of the deposited data

Results flagged for a closer look

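For 5 members every knockdown array of one line lay above its controls and every knockdown array of another line lay below. The difference of the change between those lines was not tested, since the members were selected with these values known. How many of all genes part in this way was not counted, so nothing is read from the number of members that do. The change in H1993 minus that in H1650 was 4.82 (log2) for SULT2B1, 3.17 for IVL, 2.67 for S100A9 and 2.46 for SPRR1B. For SPRR1A the change in H1993 minus that in H1693 was 2.31.

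Of the 28 list genes named for a knockdown change, 24 passed limma's test of the difference of the change between at least 1 of 3 pairs of lines. These genes were picked for a large change in the same fit, which makes a pass likely, so nothing is read from the counts of passes. In H1993 against H1693, the pair without H1650, 14 of the 28 passed, where 12.6% of all genes were called higher and 9.48% lower. There the change was higher in H1993 by 1.95 for SPRR2D (adjusted p = 9.95e-06), 1.41 for STS (adjusted p = 0.000147), 1.40 for NOTCH3 (adjusted p = 5.41e-05), 1.26 for S100A16 (adjusted p = 5.4e-05) and 1.18 for FOSL1 (adjusted p = 4.76e-05). It was higher by 0.80 for PPL, 0.79 for S100A14, 0.73 for SERPINB4, 0.63 for ELOVL4 and 0.46 for KRT4 (adjusted p from 0.000481 to 0.0205). In H1693 SERPINB4 was under the floor of 5 in both groups (4.03 and 3.78), and S100A14 went from 5.26 to 4.55. A change in H1693 could hardly be seen for SERPINB4, so its value is not read as a difference between the lines. The difference was -0.94 for TRIM29, -0.74 for KRT80, -0.52 for CEBPB and -0.42 for TGM2 (adjusted p from 0.00186 to 0.0492).

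For the genes that follow the pair of smallest p involved H1650, whose GAPDH 3′ minus 5′ signal was 2.68 in control and 6.82 in knockdown arrays. Of the change in H1693 minus that in H1650, EVPL showed 2.85, JUNB 2.79, TRIM29 2.71, PKP3 1.35, KLF5 1.22 and KRT80 1.17, and negative values were -1.93 for SPRR2D, -1.38 for FOSL1, -0.89 for ELOVL4, -0.80 for DSC3, -0.69 for S100A12, -0.44 for KRT4 and -0.42 for TGM7. Adjusted p ran from 2.62e-06 (EVPL, JUNB and SPRR2D) to 0.0408 (S100A12). Of the change in H1993 minus that in H1650, ELF3 showed 3.08 (adjusted p = 9.25e-07), NOTCH3 1.63, PPL 1.20, SERPINB4 0.70 and S100A2 0.66, and SERPINB5 was at -0.68 and TGM2 at -0.45 (adjusted p = 0.0221). SERPINB4 was under the floor of 5 in H1650 too (4.27 and 4.05), so the same limit holds there. KRT14, PRDM1, SERPINB3 and UGCG did not pass in any pair. The part of RNA integrity in these differences was not tested.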

How the results depend on the processing

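Under the alternatives run for the members, no member difference among those called turned its sign. Signs of list genes were not checked, and their probe sets can differ in sign, as for KLF4 in H1650 with 0.46 and -1.24. Of the counts of calls, 374 stayed within 1.5 times their main value while 14 did not. Averaging the probe sets of a gene changed the members called lower in H1693 from 1 to 0, and fitting only the arrays compared changed them to 2 and the list genes lower there from 7 to 14. Quantile normalization changed the list genes higher in H1650 from 18 to 11 and those higher in H1993 against H1650 controls from 15 to 24. The causes were not tested. Leaving out each array in turn gave 1 to 2 members higher in H1650, 1 to 2 members lower in H1693, 6 to 11 list genes higher in H1693 (6 without control replicate 2 or knockdown replicate 2 of that line) and 5 to 8 lower in H1993 (5 without control replicate 1). The arm left with 1 array was assumed to vary like the other groups. Whether the replicate numbers pair the arrays is not stated in the labels. Deviations of same-numbered arrays correlated at -0.105 in H1650, -0.176 in H1693 and 0.286 in H1993. With the replicate block the members higher in H1993 stayed at 7, the list genes higher there were 18 instead of 19, and no count moved by over 1.5 times. Crossing the numbers in H1650 and H1693, an alternative chosen after seeing the data, gave 11 list genes lower in H1693 instead of 7. Dim signals compress differences, which bears on every member with a group mean near the floor of 5, such as SPRR1B, SPRR1A and S100A8 in H1693, S100A8, S100A9 and IVL in the H1993 controls, and TGM1 and KRT13. List genes with such means are limited in the same way, among them SERPINB4, S100A14 and SPRR2D in H1693.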
